A study of Mus musculus with 6 samples.

Results

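Samhd1 encodes the enzyme that breaks down deoxynucleoside triphosphates (dNTPs), the building blocks of DNA, and it was read here together with 9 genes for enzymes that make or supply dNTPs: Rrm1, Rrm2, Rrm2b, Dck, Dguok, Tk1, Dtymk, Tyms, and Dut. Samhd1 was selected on its read counts in these same libraries, in which its level was higher with both blocking antibodies than with isotype, so its values against isotype are given as a description with no test, and the 9 enzymes were chosen for their function. All 10 genes were found among the 47643 rows of the count table, and all 10 were among the 11877 genes with at least 10 reads over the 6 libraries that entered the tests. The libraries came from CD4+ T cells of Tg4 Tiger Nr4a3-Tocky mice, in which the T cells carry a transgenic receptor for a myelin basic protein (MBP) peptide, a fluorescent Timer protein reports Nr4a3 expression after receptor signaling, and Il10-expressing cells are marked with GFP. Every mouse received 80 μg of [4Y] MBP peptide subcutaneously and, 24 h later, 800 μg of antibody: a pool of rat IgG1 and rat IgG2a in the isotype group, anti-PD1 (clone 29F.1A12), or anti-Lag3. All mice were re-challenged with 8 μg of peptide 30 min after the antibody, and splenic CD4+ T cells positive for both the blue and the red form of the Timer were sorted 4 h after that, so that the sort selected cells that had expressed Nr4a3 in each group, controls included. Each group had 2 libraries from separate mice. The mice were of both sexes, with littermates of the same sex assigned to groups at random, and their ages are not given in the sources used here. In the text below a level is in CPM, the reads of a gene per 1000000 reads of its library after scaling, and libraries are named by group and replicate. Antibody groups and antibody libraries are those of the blocking antibodies anti-PD1 and anti-Lag3, without the isotype pool.

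DNA synthesis draws on dNTPs made along a de novo route and a salvage route. In the de novo route ribonucleotide reductase, a complex of the large subunit RRM1 with the small subunit RRM2 or its relative RRM2B, turns ribonucleotides into deoxyribonucleotides. DUT removes dUTP, TYMS makes thymidylate, and DTYMK adds the next phosphate to it. In the salvage route DCK, DGUOK, and TK1 phosphorylate free deoxynucleosides. SAMHD1 works in the opposite direction and cleaves dNTPs to deoxynucleosides and triphosphate. It is best known as a restriction factor against retroviruses in myeloid cells and resting T cells, its activity is modified by phosphorylation by cyclin-dependent kinases in cycling cells, and its loss in humans causes Aicardi-Goutières syndrome, an interferon-driven disease.

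The promoters of Samhd1 and of the large and the main small subunit of ribonucleotide reductase are printed to show the gene that was higher with the antibodies beside the 2 genes of the complex it counteracts. Each runs from 250 bases before to 50 bases after the start of transcription in RefSeq (GRCm38.p6), 5′ to 3′ on the strand of the gene, at chr2:157135047-157135346 (minus strand) for Samhd1, chr7:102441445-102441744 (plus strand) for Rrm1, and chr12:24708004-24708303 (plus strand) for Rrm2. Capitals mark CCAAT, the word bound by the NF-Y factor.
Samhd1: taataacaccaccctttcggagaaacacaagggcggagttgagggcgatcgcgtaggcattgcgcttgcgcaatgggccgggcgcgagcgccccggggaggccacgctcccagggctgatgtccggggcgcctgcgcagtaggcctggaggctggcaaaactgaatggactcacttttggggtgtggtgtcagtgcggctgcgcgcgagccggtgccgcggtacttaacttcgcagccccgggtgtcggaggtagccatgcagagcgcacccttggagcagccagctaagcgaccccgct
Rrm1: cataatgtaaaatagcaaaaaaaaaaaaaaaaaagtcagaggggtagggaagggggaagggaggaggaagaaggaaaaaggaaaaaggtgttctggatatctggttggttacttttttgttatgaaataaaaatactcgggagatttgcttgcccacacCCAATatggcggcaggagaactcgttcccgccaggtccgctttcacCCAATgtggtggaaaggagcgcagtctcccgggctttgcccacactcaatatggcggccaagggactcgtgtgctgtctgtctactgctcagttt
Rrm2: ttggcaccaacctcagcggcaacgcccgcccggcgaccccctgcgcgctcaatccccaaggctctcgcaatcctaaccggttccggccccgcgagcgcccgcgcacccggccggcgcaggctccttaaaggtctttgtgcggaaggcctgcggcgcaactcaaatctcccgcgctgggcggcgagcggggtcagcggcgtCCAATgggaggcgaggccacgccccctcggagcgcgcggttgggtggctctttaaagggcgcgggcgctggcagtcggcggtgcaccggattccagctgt
CCAAT on either strand was found in the promoters of 3 of the 9 members with a sequence in the table: Rrm1 (at -91 to -87 and -45 to -41 from the start), Rrm2 (-50 to -46), and Dtymk (-112 to -108, on the opposite strand). Across all 32851 promoters of this length, 37.4% held it. An E2F word (TTTCCCGC, TTTCGCGC, TTTGCCGC, or TTTGGCGC, in 2.26% of promoters), an interferon response word (GAAANNGAAA, 3.44%), and an AP-1 word (TGACTCA or TGAGTCA, 5.2%) were searched on both strands and were in none of the 9. TGACTCA and TGAGTCA are the same word on opposite strands, and no other words searched overlapped in these promoters. Bases from G and C made up 65.7% of the Samhd1 promoter, 47% of that of Rrm1, and 71.3% of that of Rrm2.

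Samhd1 (ENSMUSG00000027639, chr2:157097533-157135265, minus strand of GRCm38) was higher with either antibody. Its level was 113.6 and 115.5 CPM in the isotype libraries, 188.3 and 227.8 CPM with anti-PD1, and 194.8 and 173.8 CPM with anti-Lag3, from 241 to 557 reads a library. Every library from a mouse given a blocking antibody lay above both isotype libraries, and the anti-PD1 and anti-Lag3 libraries overlapped. Group means were 114.5 CPM ± 1.38 (SD, n = 2) for isotype, 208.0 CPM ± 27.9 (SD, n = 2) for anti-PD1, and 184.3 CPM ± 14.8 (SD, n = 2) for anti-Lag3, so the order of the groups was isotype, anti-Lag3, anti-PD1, with the anti-Lag3 and anti-PD1 groups not separated by their spread. The fitted difference from isotype was 0.86 on the log2 scale (SE 0.137, 1.82-fold) for anti-PD1 and 0.69 (SE 0.137, 1.61-fold) for anti-Lag3. Both differences use the same isotype libraries. In bulk RNA, more cells with the transcript and more transcript per cell cannot be told apart.

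The size of the anti-PD1 difference depended in part on anti-PD1 replicate 2, the library with the highest level. Without it, Samhd1 differed from isotype by 0.72 on the log2 scale. Across all 13 alternative settings and left-out libraries the difference ran from 0.72 to 0.99 for anti-PD1 and from 0.60 to 0.77 for anti-Lag3.

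Between anti-PD1 and anti-Lag3, Samhd1 differed by 0.18 on the log2 scale (SE 0.131). Samhd1 was selected for a rise with both antibodies, which favours a gene with similar levels in the 2 groups, so this difference is a description as well and is given with no test. Without anti-PD1 replicate 2 it was 0.03.

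**Figure D1:**
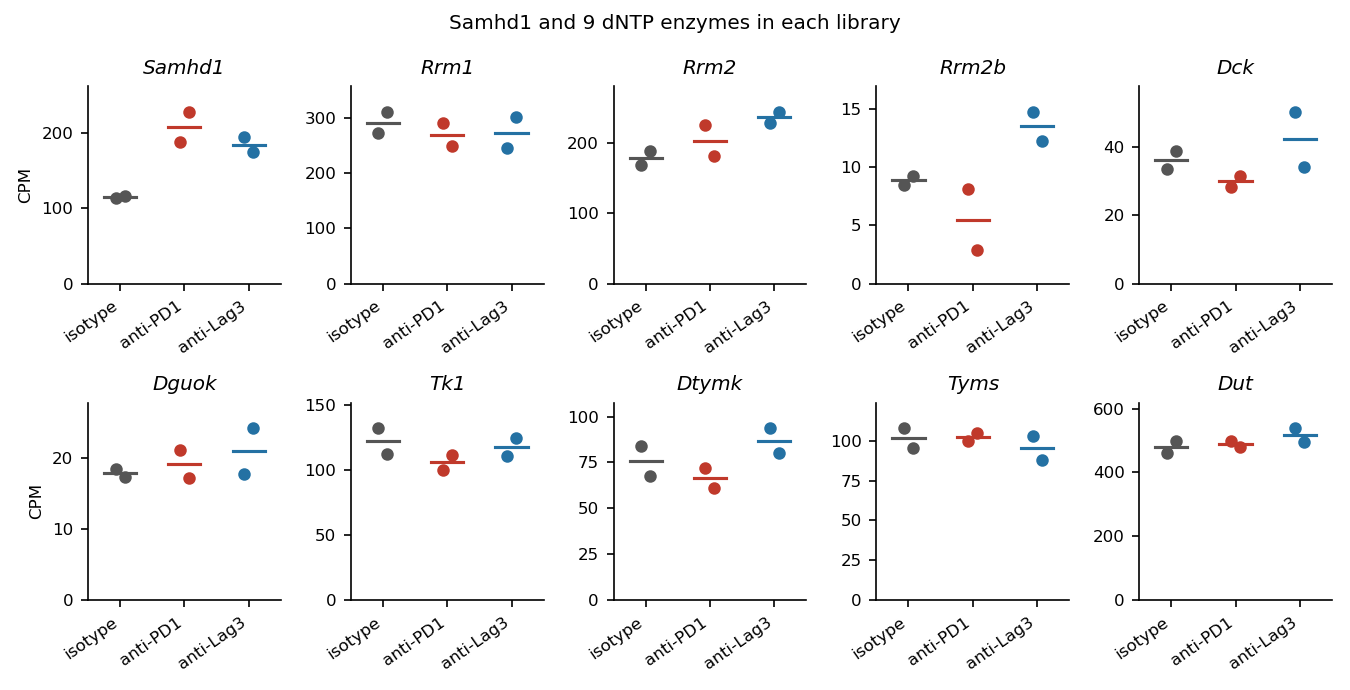
Level of Samhd1 and the 9 dNTP enzymes in each library. Points are libraries, bars are group means, and each vertical axis is in CPM from 0. For Samhd1 the 4 antibody libraries lie between 173.8 and 227.8 CPM, above the isotype libraries at 113.6 and 115.5 CPM. For Rrm1, Dguok, Dtymk, Tyms, and Dut the libraries of each antibody overlap those of isotype. Rrm2b, Dck, and Tk1 lie below isotype with anti-PD1, and Rrm2 and Rrm2b lie above it with anti-Lag3.

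The enzymes that make or supply dNTPs were then read against the same isotype libraries. With anti-PD1, 0 of the 9 enzymes passed an adjusted p of 0.05 against isotype by edgeR, where 0.901% of all genes tested (107 of 11877) did. DESeq2 also called 0, and 0 of the 9 had an unadjusted p under 0.05 with either tool, against 8.12% of all genes with edgeR. The 9 adjusted p-values ran from 0.802 to 1. The anti-PD1 libraries of 3 of 9 enzymes (Rrm2b, Dck, and Tk1) lay wholly below the isotype libraries and those of 0 wholly above, where 37.4% of all genes had groups that did not overlap. The upper 95% confidence limits of the 9 differences were between 0.11 (Tk1) and 0.75 (Dguok) on the log2 scale.

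With anti-Lag3, 0 of the 9 enzymes were called against isotype by edgeR or by DESeq2, where edgeR called 0.0421% of all genes tested (5 of 11877). At an unadjusted p under 0.05 each tool gave 1, and with both it was Rrm2, where edgeR gave 5.96% of all genes. The libraries of 2 of 9 enzymes, Rrm2 and Rrm2b, lay wholly above isotype, and 34.6% of all genes had groups that did not overlap. Upper confidence limits ran from 0.15 (Rrm1) to 1.495 (Rrm2b) on the log2 scale.

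Between the antibodies, 0 of the 9 enzymes were called by edgeR, where 0.303% of all genes tested (36 of 11877) were. DESeq2 called 0 of the 7 for which it gave an adjusted p, and gave none for Rrm2b and Dguok, which have the fewest reads of the 9. An unadjusted p under 0.05 was reached by 2 genes with edgeR, Rrm2b and Dtymk, and by 1 with DESeq2, while 6.53% of all genes reached it with edgeR. Of the 9 enzymes 4 had anti-PD1 libraries wholly below the anti-Lag3 libraries, which were Rrm2, Rrm2b, Dck, and Dtymk, and 35.9% of all genes had groups that did not overlap.

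**Figure D2:**
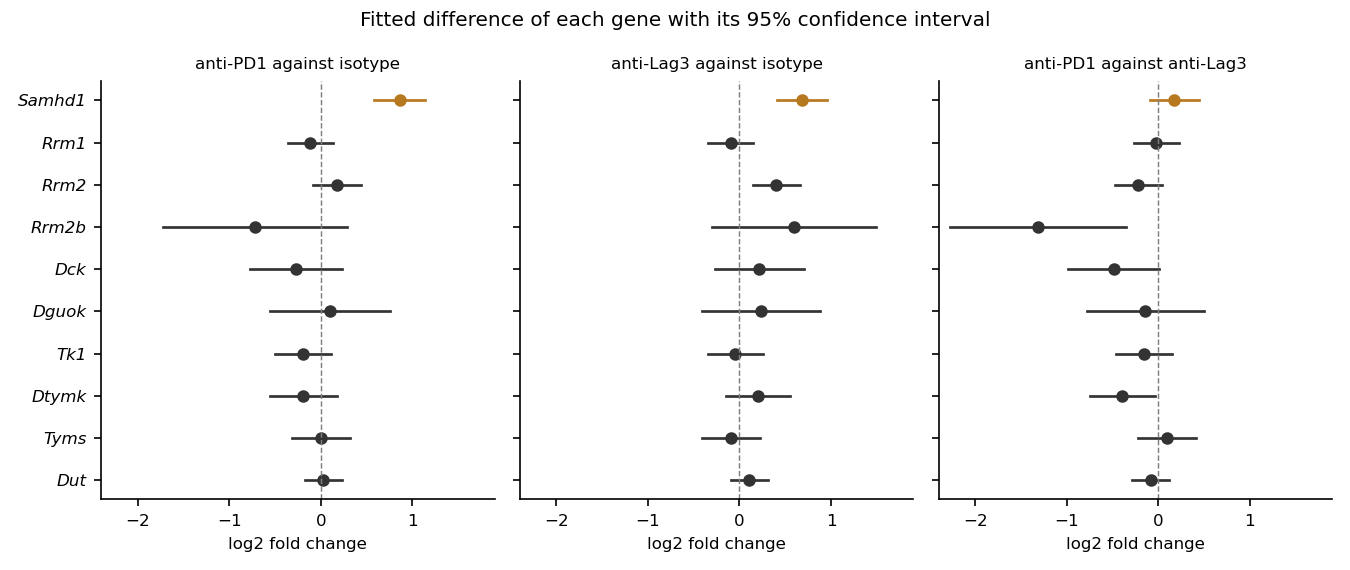
Fitted log2 fold change of each gene (horizontal axis) in the 3 comparisons, with its 95% confidence interval from edgeR as a line. Samhd1 is drawn in ochre and stands at 0.86 and 0.69 against isotype, values that follow from how it was chosen. The intervals of the 9 enzymes include 0 with anti-PD1, and Rrm2b has the widest.

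Ribonucleotide reductase comes first by role, and its gene Rrm2b had the largest fitted difference of the 9 enzymes in each of the 3 comparisons. Rrm1, the large subunit (ENSMUSG00000030978, chr7:102441695-102469771, plus strand), had 271.9 and 311.1 CPM in isotype, 290.4 and 249 CPM with anti-PD1, and 244.6 and 300.9 CPM with anti-Lag3. The 3 groups overlapped, and the differences from isotype were -0.12 (SE 0.122, adjusted p = 0.906 by edgeR) and -0.10 (SE 0.121, adjusted p = 0.962 by edgeR) on the log2 scale for anti-PD1 and anti-Lag3.

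Rrm2, the S phase small subunit (ENSMUSG00000020649, chr12:24708241-24714146, plus strand), had 168.2 and 189.2 CPM in isotype, 225.7 and 181.1 CPM with anti-PD1, and 228.1 and 244.4 CPM with anti-Lag3. Both anti-Lag3 libraries lay above all other libraries, and the anti-PD1 libraries overlapped isotype. The difference of anti-Lag3 from isotype was 0.40 (SE 0.128, 95% confidence interval 0.14 to 0.66, 1.32-fold) with an unadjusted p of 0.00321 and an adjusted p of 0.608 by edgeR, so it did not pass the test over all genes. Leaving out each library in turn moved it between 0.33 and 0.49.

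Since Rrm1 and Rrm2 form one enzyme, their reads were also set against each other within each library, a comparison chosen after the values were seen. There were 61.9 and 60.8 Rrm2 reads per 100 Rrm1 reads in isotype, 77.7 and 72.7 with anti-PD1, and 93.3 and 81.2 with anti-Lag3. The 3 groups did not overlap in this ratio, in the order isotype, anti-PD1, anti-Lag3. How many other pairs of genes separate in this way was not counted. Of single genes, 34.6% to 37.4% had groups that did not overlap in a comparison of 2 groups. With 2 libraries against 2, an exact permutation test cannot give a p below 0.333, so no test was made. A ratio within a library shows unequal change of the 2 transcripts and not which of them changed.

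Rrm2b, the small subunit used outside S phase and induced by p53 (ENSMUSG00000022292, chr15:37923952-37961318, minus strand), was the member with the fewest reads, 7 to 35 a library. Its level was 8.48 and 9.26 CPM in isotype, 8.15 and 2.86 CPM with anti-PD1, and 14.8 and 12.3 CPM with anti-Lag3. The groups did not overlap, with anti-PD1 lowest and anti-Lag3 highest, although anti-PD1 replicate 1 was within 1 read of isotype replicate 1 (17 and 18 reads). How many of all genes tested separate all groups in this way was not counted. The direct difference between the antibodies was -1.32 (SE 0.476, 95% confidence interval -2.28 to -0.36) on the log2 scale, with an unadjusted p of 0.00853 and an adjusted p of 0.475 by edgeR. A processed pseudogene on the same strand within the gene, Gm3362, had 0 to 5 reads a library.

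Among the salvage kinases, Dck, which phosphorylates deoxycytidine and other deoxynucleosides (ENSMUSG00000029366, chr5:88764996-88783281, plus strand), had 33.5 and 38.6 CPM in isotype, 28.3 and 31.5 CPM with anti-PD1, and 50.2 and 34.2 CPM with anti-Lag3. The anti-PD1 libraries were below the other 4, and the difference between the antibodies was -0.49 (SE 0.245, adjusted p = 0.763 by edgeR). Tk1, the cytosolic thymidine kinase of S phase (ENSMUSG00000025574, chr11:117815526-117826092, minus strand), had 132.4 and 112.3 CPM in isotype, 100.6 and 112.0 CPM with anti-PD1, and 111.3 and 125.2 CPM with anti-Lag3. Its differences from isotype were -0.20 (SE 0.151) and -0.05 (SE 0.148) on the log2 scale. Dguok, the mitochondrial deoxyguanosine kinase (ENSMUSG00000014554, chr6:83480217-83506969, minus strand), had between 17.2 and 24.1 CPM in all 6 libraries, with all groups overlapping. Afmid, which overlaps Tk1 on the other strand, had at most 5 reads a library.

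The thymidylate enzymes and the dUTPase followed. Tyms (ENSMUSG00000025747, chr5:30058202-30073617, minus strand) had 107.9 and 95.8 CPM in isotype, 99.7 and 104.7 CPM with anti-PD1, and 103.3 and 87.7 CPM with anti-Lag3, and its differences from isotype were 0.01 (SE 0.157) and -0.09 (SE 0.156) on the log2 scale. Dut (ENSMUSG00000027203, chr2:125247190-125258608, plus strand), measured from 981 to 1338 reads a library, had 462.3 and 499.1 CPM in isotype, 498.3 and 480.5 CPM with anti-PD1, and 538.5 and 497.0 CPM with anti-Lag3. Its interval against isotype was the narrowest of the 9, from -0.18 to 0.23 with anti-PD1 and from -0.10 to 0.31 with anti-Lag3. Dtymk (ENSMUSG00000026281, chr1:93792576-93801934, minus strand) had 83.9 and 67.6 CPM in isotype, 71.9 and 60.9 CPM with anti-PD1, and 93.6 and 80.2 CPM with anti-Lag3. The antibody groups of Dtymk did not overlap each other, by -0.39 (SE 0.177) on the log2 scale, at an adjusted p of 0.716 by edgeR.

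Summed over the 9 enzymes, the level was 1287 and 1340 CPM in isotype, 1344 and 1240 CPM with anti-PD1, and 1402 and 1406 CPM with anti-Lag3. The median log2 difference of the 9 was -0.12 for anti-PD1 against isotype, 0.20 for anti-Lag3 against isotype, and -0.15 for anti-PD1 against anti-Lag3, where the medians of all genes were within 0.004 of 0. As a description, Samhd1 had 8.82 and 8.62 reads per 100 reads of the 9 enzymes in isotype, 14.0 and 18.4 with anti-PD1, and 13.9 and 12.4 with anti-Lag3.

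The wider nucleotide pathways gave 0 calls in all 3 comparisons with edgeR and with DESeq2. Of 59 other genes for dNTP turnover, purine and pyrimidine synthesis, purine salvage, nucleotide kinases, one-carbon enzymes, and nucleoside transporters, 53 were tested, and their median log2 difference was 0.002 with anti-PD1 and 0.058 with anti-Lag3 against isotype. At an unadjusted p under 0.05, 2, 4, and 3 of the 53 passed for anti-PD1 against isotype, anti-Lag3 against isotype, and anti-PD1 against anti-Lag3 with edgeR, and 0, 0, and 2 with DESeq2. Of all genes 8.12%, 5.96%, and 6.53% passed this unadjusted threshold with edgeR, and 0.901%, 0.0421%, and 0.303% were called, so with 53 genes a count of 0 called or of 2 to 4 unadjusted is near the background.

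Paics, a purine synthesis enzyme, lay between 313.8 and 374.3 CPM in all 6 libraries, with 345.0 and 345.1 CPM in the anti-PD1 libraries. Cad, which starts pyrimidine synthesis, differed by -0.10 and 0.09 on the log2 scale, and Uck2, a uridine-cytidine kinase, by -0.003 and 0.057. None of these 3 genes passed the test in either comparison.

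The purine salvage enzyme Hprt had 143.7 and 145.7 CPM in isotype, 170.1 and 172.6 CPM with anti-PD1, and 177.5 and 151.2 CPM with anti-Lag3, with unadjusted p-values of 0.0773 and 0.182 by edgeR. Mthfd2, the mitochondrial one-carbon enzyme of activated T cells, had 492.4 and 526.1 CPM in isotype, 449.4 and 512.3 CPM with anti-PD1, and 532.2 and 370.7 CPM with anti-Lag3. Nme1, a nucleoside diphosphate kinase whose close copy Nme2 could share its reads, lay between 360.3 and 411.6 CPM in every library. Of the other genes with the most reads in each list, those set down here were Dctpp1 and Nt5c of dNTP turnover, Gart and Atic of purine synthesis, Umps of pyrimidine synthesis, Aprt and Adk of purine salvage, the adenylate kinase Ak6, the serine hydroxymethyltransferases Shmt1 and Shmt2, and the transporter Slc29a3. The differences of these genes from isotype ran from -0.37 (Adk) to 0.23 (Slc29a3) on the log2 scale with anti-PD1, and from -0.28 (Shmt2) to 0.13 (Dctpp1) with anti-Lag3, and other genes of the lists lay outside these ranges. Among them Gmps of purine synthesis differed by -0.37 with anti-Lag3, with an unadjusted p of 0.0285 by edgeR.

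The equilibrative nucleoside transporter Slc29a1 had 74.0 and 82.5 CPM in isotype, 58.5 and 58.1 CPM with anti-PD1, and 90.2 and 74.7 CPM with anti-Lag3. Both anti-PD1 libraries lay below all others. The differences were -0.43 against isotype and -0.50 against anti-Lag3 on the log2 scale, with unadjusted p-values of 0.0223 and 0.00784 by edgeR, and neither passed after adjustment.

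**Figure D3:**
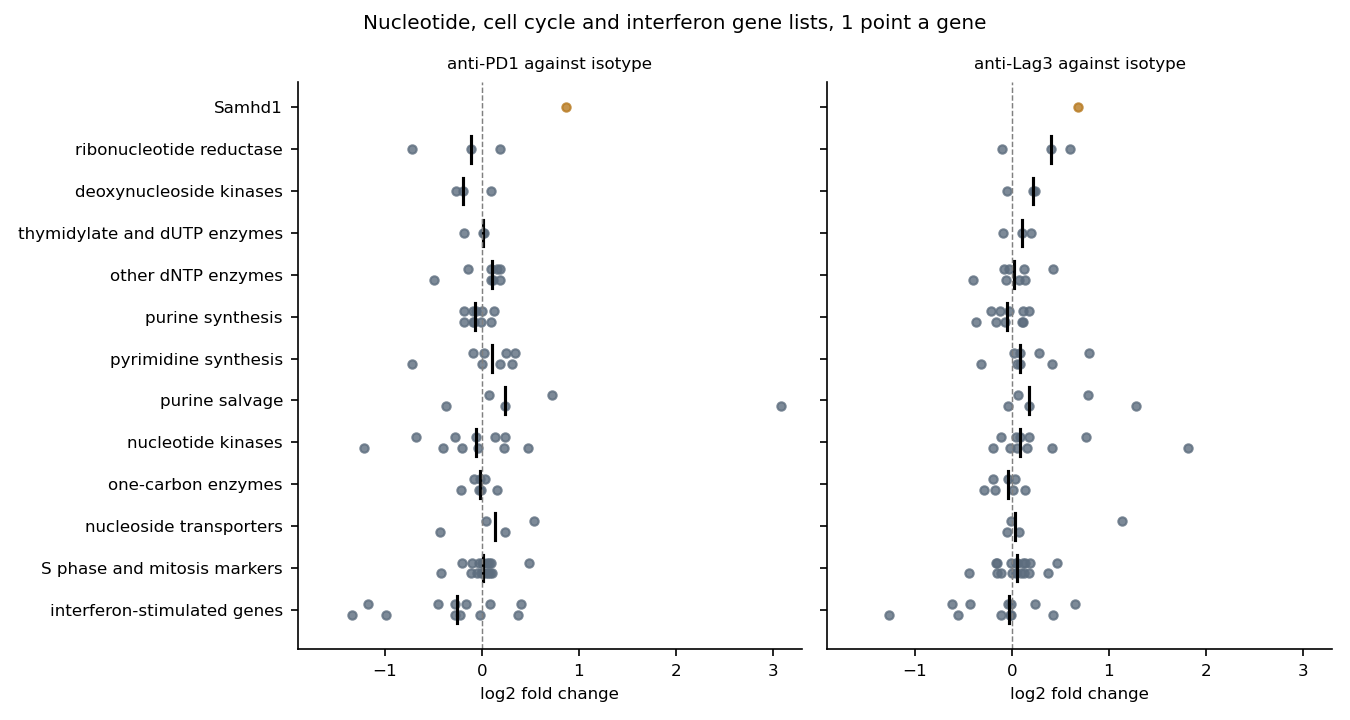
Log2 fold change against isotype (horizontal axis) of each tested gene of 13 lists, 1 point a gene, with a black bar at the median of each list and Samhd1 in ochre. Medians of the nucleotide lists other than the 10 chosen genes lie between -0.07 and 0.24 with anti-PD1, and the outlying points are genes with few reads, such as Nt5e, which had at most 2.40 CPM in any library.

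SAMHD1 and most of the enzymes are tied to the cell cycle, so markers of S phase and mitosis were read in the same libraries. None of the 18 passed the test in any comparison with edgeR, nor with DESeq2, and their median log2 difference was 0.011 with anti-PD1 and 0.053 with anti-Lag3 against isotype. With an unadjusted p under 0.05 there were 1, 1, and 1 of the 18 in the 3 comparisons with edgeR, and 0, 1, and 1 with DESeq2, near the 8.12%, 5.96%, and 6.53% of all genes with edgeR. Top2a, a topoisomerase of dividing cells, had 1572 and 1588 CPM in isotype, 1420 and 1504 CPM with anti-PD1, and 1321 and 1521 CPM with anti-Lag3. Pcna, the clamp of the replication fork, had 230.4 and 214.5 CPM, 247.7 and 210.2 CPM, and 257.7 and 229.9 CPM in the same order. Neither gene passed the test in any comparison.

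The kinases that phosphorylate SAMHD1 were read too. Cdk1 had 172.0 and 175.5 CPM in isotype, 196.9 and 177.9 CPM with anti-PD1, and 150.5 and 170.5 CPM with anti-Lag3, Cdk2 lay between 50.8 and 58.8 CPM in all libraries, and 0 of the 7 kinases and partners listed were called, where 0.901%, 0.0421%, and 0.303% of all genes were in the 3 comparisons. Ccna2, the cyclin A of these kinases, had 109.8 and 95.4 CPM in isotype, 109.2 and 107.1 CPM with anti-PD1, and 120.6 and 161.6 CPM with anti-Lag3. Its difference of anti-Lag3 from isotype was 0.47 on the log2 scale, with an unadjusted p of 0.00416 by edgeR, and did not pass after adjustment. Transcript levels do not report the phosphorylation or the activity of SAMHD1.

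Samhd1 is also an interferon-stimulated gene in many cells and belongs to the set of genes mutated in Aicardi-Goutières syndrome. None of 12 interferon-stimulated genes was called in any comparison by edgeR or DESeq2, and with either tool 0 had an unadjusted p under 0.05. The shares of all genes called by edgeR were 0.901%, 0.0421%, and 0.303%, and 8.12%, 5.96%, and 6.53% unadjusted, so a list of 12 is too short for a count of 0 to stand apart from them. Their median log2 difference was -0.25 with anti-PD1 and -0.03 with anti-Lag3 against isotype. Isg15, a ubiquitin-like protein, had 171.1 and 164.2 CPM in isotype, 127.0 and 202.4 CPM with anti-PD1, and 196.5 and 130.7 CPM with anti-Lag3. Of the other Aicardi-Goutières genes 5 of 6 were tested and 0 were called with either tool. Rnaseh2b, a subunit of the nuclease that removes ribonucleotides from DNA, differed by -0.02 on the log2 scale with each antibody against isotype.

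The genes whose level followed that of Samhd1 most closely over the 6 libraries were Tnfrsf18, Peli1, Cd5, Abl2, Icos, and Mios, by Pearson's r of log2 CPM among 5432 genes with a mean of at least 20 CPM. The r was 0.989, 0.984, 0.976, 0.971, 0.966, and 0.966 in that order, and it is a description over 6 libraries in 3 groups that all of the genes share. On the rlog values that the authors deposited 5 of these 6 were again among the first 6, whereas a rank correlation put 6 other genes first, with 0 shared.

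Tnfrsf18, which encodes the costimulatory receptor GITR, had 118.8 and 109.1 CPM in isotype, 187.4 and 247.8 CPM with anti-PD1, and 196.1 and 168.3 CPM with anti-Lag3. Cd5, a surface receptor that tempers T cell receptor signaling, had 42.4 and 41.5 CPM, 71.4 and 96.9 CPM, and 65.8 and 63.9 CPM in the same order. For both genes, as for Samhd1, anti-PD1 replicate 2 was the highest library and the isotype libraries the lowest. Icos, an inducible costimulator, had 739.9 and 695.5 CPM, 981.3 and 1170 CPM, and 927.7 and 910.0 CPM. Mios, a subunit of the GATOR2 complex in mTORC1 regulation, had 21.2 and 23.8 CPM, 31.6 and 36.4 CPM, and 29.5 and 30.5 CPM.

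The likeness concerned the shape and not the size of the pattern. Peli1, a ubiquitin ligase, differed from isotype by 0.17 with anti-PD1 and 0.11 with anti-Lag3 on the log2 scale, and Abl2, a tyrosine kinase, by 0.23 and 0.22, against 0.94 and 0.68 for Tnfrsf18 and 1.01 and 0.63 for Cd5. The 9 enzymes followed Samhd1 less closely, with r from -0.55 for Rrm1 and -0.51 for Tk1 to 0.38 for Dut and 0.47 for Rrm2, where the median over all genes ranked was -0.01. Of the 5 genes with a promoter in the table, Cd5 held a CCAAT (-76 to -72 from the start, opposite strand), and none held an E2F, interferon response, or AP-1 word.

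**Figure D4:**
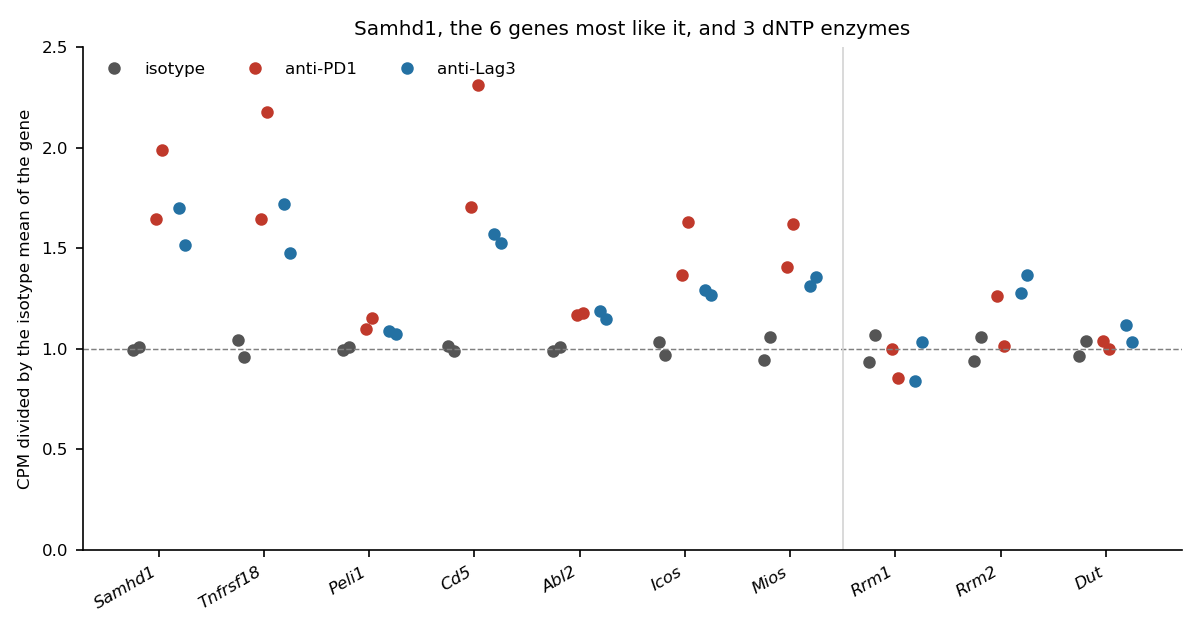
Level of Samhd1, the 6 genes most like it, and 3 enzymes in each library, divided by the mean of the isotype libraries for that gene (vertical axis, no unit, from 0). Points are libraries coloured by group. Samhd1, Tnfrsf18, and Cd5 reach 1.99, 2.17, and 2.31 in anti-PD1 replicate 2, whereas Peli1 and Abl2 stay below 1.2.

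Macrophages and dendritic cells also express Samhd1, so markers of other cell types were read in the same libraries. T cell markers, led by Trbc2, summed to 2657 and 2733 CPM in isotype, 2392 and 2548 CPM with anti-PD1, and 2769 and 2611 CPM with anti-Lag3. Both anti-PD1 libraries were thus below both isotype libraries in this sum. Cd4 had 131.3 to 189.8 CPM. Markers of macrophages and monocytes summed to 80.1 and 64.8 CPM in isotype, 21.6 and 37.2 CPM with anti-PD1, and 42.2 and 44.9 CPM with anti-Lag3, and 9 and 8 of the 10 had a lower fitted level than isotype with anti-PD1 and anti-Lag3. In this sum each antibody library was below both isotype libraries. Whether other cells contributed to the Samhd1 level was not tested. C1qa, a complement component of macrophages, differed by -2.59 on the log2 scale with anti-PD1 (adjusted p = 0.0266 by edgeR), a call that DESeq2 did not make (adjusted p = 0.191). This rested on 27 and 29 reads in isotype and 3 and 6 reads with anti-PD1. With anti-PD1, C1qb differed by -0.37 with libraries that overlapped isotype. Cd68 differed by 0.95 with both anti-PD1 libraries above isotype.

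B cell markers summed to 118.8 and 132.0 CPM in isotype, 65.2 and 51.1 CPM with anti-PD1, and 82.7 and 122.6 CPM with anti-Lag3, with 6 and 7 of the 7 tested lower than isotype in fitted level. Igkc fell by 2.51 on the log2 scale with anti-PD1 (adjusted p = 0.00132 by edgeR) and Ighm by 0.89 (adjusted p = 0.00836 by edgeR), of which DESeq2 called Igkc (adjusted p = 0.017) and not Ighm (adjusted p = 0.0738). Ighm was also lower with anti-PD1 than with anti-Lag3 by edgeR (adjusted p = 0.0227) and not by DESeq2 (adjusted p = 0.105), while Cd79a had 0 reads in all libraries. Of 9 dendritic cell markers only H2-Aa, H2-Ab1, and Cd74, which B cells and macrophages also express, had enough reads to be tested, and they summed to 38.2 and 45.1 CPM, 13.4 and 17.2 CPM, and 14.8 and 35.7 CPM. Of the remaining dendritic cell markers, Zbtb46, Siglech, and Clec9a had 0 reads in all libraries. Itgax had 0 and 2 reads in isotype, 0 and 0 with anti-PD1, and 3 and 4 with anti-Lag3. Flt3 had 4 reads, all in isotype replicate 1, and Xcr1 had 1 read, in anti-PD1 replicate 2. Markers of NK and CD8 T cells summed to between 40.1 and 66.0 CPM, and those of erythroid cells and neutrophils to between 25.4 and 64.4 CPM, and in both lists the isotype libraries were the highest. The sums of all 5 lists of other cell types were lower in the anti-PD1 libraries than in isotype, as was the T cell sum. With anti-Lag3 the B cell and T cell sums overlapped isotype.

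**Figure D5:**
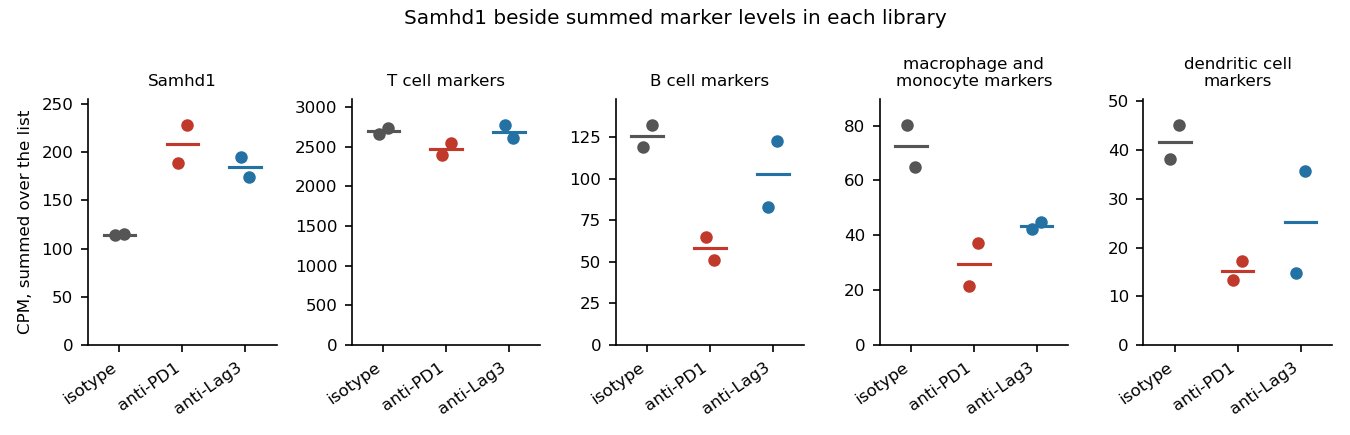
Samhd1 beside the summed level of marker lists in each library, in CPM from 0 (points are libraries, bars are group means). Samhd1 is higher in the 4 antibody libraries, and macrophage and monocyte markers are lower in them, at 21.6 to 44.9 CPM against 64.8 and 80.1 CPM in isotype.

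The depth was alike in all groups, with 2107715 to 2648920 counts a library, so that 3 reads correspond to 1.11 to 1.44 CPM. Gm42418, a gene that overlaps ribosomal RNA, took 17.4% to 21% of the counts and was the most abundant row in each library. Replicates differed by more than counting noise, with a chi-square per degree of freedom of 2.65 to 3.29 within groups, so all 6 were treated as separate samples.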

How the data were processed

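CD4+ T cells sorted as positive for both colours of the Nr4a3-Timer were profiled by 3′ mRNA sequencing (QuantSeq Forward) in 6 libraries, 2 for each of isotype, anti-PD1, and anti-Lag3. Per the submitters' processing notes and the study's methods, Bbduk was used for trimming, STAR 2.5.2a for alignment to mm10 (GRCm38), and HTSeq for assigning reads to genes. The deposited counts are raw whole reads per gene, and the deposited rlog values are log2 values made by the authors with DESeq2. The strand setting of the counting and the annotation release are not given in the sources used here. A further batch of 3 samples that the authors left out as an outlier was not analysed here. 3′ reads come from the end of the transcript, so they do not tell isoforms apart.

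Names and positions came from GENCODE M21, which matched 47224 of 47643 identifiers. Genes with at least 10 reads over the 6 libraries were tested with edgeR 4.0.16 in R 4.3.3 (TMM scaling, glmQLFit and glmQLFTest, all libraries in 1 fit), adjusted by the Benjamini-Hochberg method over 11877 genes with a threshold of 0.05. CPM use the TMM-scaled library size, SDs are over libraries, SEs and 95% intervals are from the fit, and intervals cover the spread between these libraries only. Log2 CPM for the likeness used a prior count of 2. The scripts were tested on simulated data. DESeq2 1.42.0 (also on the counts), other filters, a replicate block, and leaving out each library were alternatives. Promoters came from RefSeq, which matched 9 of the 10 members, and figures from matplotlib 3.10.9.

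The members, gene lists, and tests were chosen with earlier results of these data known. Samhd1 entered each fit, and since all 3 groups bear on its selection no p is given for it. Genes named are the 10 members, genes of the lists past the threshold, those of the lists with the most reads, and the 6 genes most like Samhd1. Some genes under this rule are not reported here. Pcna, Cdk1, Cdk2, Ccna2, Isg15, Nt5e, Cmpk2, Cd3e, Cd3d, Itgax, Flt3, Xcr1, C1qb, and Cd68 were added after their values were seen.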

Additional observations from a re-analysis of the deposited data

Results flagged for a closer look

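Rrm2b was singled out because its libraries lay on opposite sides of isotype with the 2 antibodies. Both anti-PD1 libraries (8.15 and 2.86 CPM) lay below both isotype libraries (8.48 and 9.26 CPM), and both anti-Lag3 libraries (14.8 and 12.3 CPM) lay above them. Dck (-0.27 and 0.22) and Dtymk (-0.19 and 0.20) also had log2 differences of opposite sign, without their libraries separating in this way. The share of all genes that meet this rule was not counted. The direct comparison, anti-PD1 against anti-Lag3, gave -1.32 on the log2 scale with an unadjusted p of 0.00853 and an adjusted p of 0.475 by edgeR. It failed the correction over all genes, and it uses the same values that singled the gene out. The value rested on 7 to 35 reads a library. Without anti-PD1 replicate 2, the library with 7 reads, it was -0.72, and without anti-PD1 replicate 1 it was -2.22. Groups of 2 libraries are too small for the test of single outlying samples, which was not made.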

How the results depend on the processing

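Of 390 differences of the 10 genes under 13 alternatives, 371 kept their sign and 19 changed sign without passing the threshold under either setting. The 390 include those of Samhd1, whose sign against isotype follows from how it was chosen and is no measure of stability. No enzyme was called by an alternative: the count of enzymes called was 0 of 9 in each comparison under each of them. The counts over all genes moved more. For anti-Lag3 against isotype, 5 genes were called, against 1 with DESeq2, 0 with edgeR's filterByExpr, 20 with no filter beyond 1 read, and 0 with only the 4 libraries compared. For anti-PD1 against anti-Lag3, 36 were called, against 16 with DESeq2 and 58 with no filter beyond 1 read. Leaving out each library in turn gave 46 to 161 genes for anti-PD1 against isotype (107 with all), 0 to 16 for anti-Lag3 against isotype, and 3 to 49 between the antibodies. With the replicate number as a block, 0 enzymes and 144, 6, and 46 genes were called in the 3 comparisons. Deviations of same-numbered libraries correlated at 0.021, 0.018, and -0.01 over all genes tested, and the numbers were not treated as a pairing in the main fit. The paper describes the samples it left out as sorted and processed together, and the labels name no batch for the libraries used here. Whether same-numbered libraries shared a batch was not tested. Of the 6 genes most like Samhd1 by Pearson's r, 0 were among the first 6 by Spearman's rho. At this depth Rrm2b, Dck, and Dguok, with 7 to 119 reads a library, had the widest intervals.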

Other observations

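The mitochondrial UMP-CMP kinase Cmpk2, an interferon-stimulated gene that supplies pyrimidine nucleotides inside mitochondria and was picked out after its values were seen, had 1.41 and 2.82 CPM in isotype, 1.44 and 0.409 CPM with anti-PD1, and 8.01 and 7.43 CPM with anti-Lag3. Both anti-Lag3 libraries lay above the other 4, and the unadjusted p of anti-PD1 against anti-Lag3 was 0.00124 by edgeR, which did not pass after adjustment over all genes. Isotype and anti-PD1 libraries stood near the level of 3 reads (1.11 to 1.44 CPM).

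Slc28a2, a concentrative nucleoside transporter, had 4.24 and 8.86 CPM in isotype, 14.4 and 5.32 CPM with anti-PD1, and 15.6 and 13.7 CPM with anti-Lag3. Anti-Lag3 differed from isotype by 1.13 on the log2 scale with an unadjusted p of 0.018 by edgeR, not passed after adjustment, and of the anti-PD1 libraries 1 lay within the isotype range and 1 above it. Of the 10 T cell markers, 7 had a lower fitted level with anti-PD1 than with isotype, none past the threshold after adjustment, and 3 a higher one. Among the 7, Cd3e, Cd3d, and Cd4 differed by -0.38, -0.34, and -0.32 on the log2 scale. Each of them had groups that did not overlap, as in 37.4% of all genes. The 3 higher ones were Cd5 (1.01, adjusted p = 0.00154 by edgeR and 0.0127 by DESeq2), Trac (0.07), and Thy1 (0.05). Trac and Thy1 did not pass the threshold.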
